A study of Canis lupus familiaris with 31 samples.

Results

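The genes described here are 41 genes that type I interferon is known to induce, chosen by symbol and followed across all cases and controls. Of the 41 symbols, 34 had a row in the count table, in 35 rows because OASL was listed under 2 Ensembl identifiers. Those rows were part of 32704 rows in all. No row carried the symbol IRF7, STAT2, IFIT5, CMPK2, USP18, HERC5 or EPSTI1, which were not analysed here. IFI6 (ENSCAFG00000012046), an interferon-induced protein linked to cell survival, had a median of 1 count, ranged from 0 to 7 counts per dog, and was the 1 listed row removed by the filter on low counts. The remaining 34 rows of 33 symbols were among the 13918 rows tested, and every one of them had at least 10 counts in every dog.

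RNA from the whole blood of 31 purebred Miniature Schnauzers was sequenced, 1 library per dog, after removal of ribosomal RNA. The 13 HTG cases, dogs with abnormally high fasting serum triglycerides (HTG), were 5 females and 8 males of 8 to 14 years. The 18 controls, with fasting triglycerides in the reference range, were 8 females and 10 males of 7 to 13 years. No dog in either group received an experimental treatment, and dogs with known or clinically suspected endocrine disease, or on drugs that alter lipids, were left out. Per the paper, not every control had a negative screen for both hypothyroidism and hypercortisolism. The case-control comparison asked whether transcripts in blood differ between dogs with and without HTG.

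Type I interferons are cytokines made when a cell senses viral nucleic acid. They bind a shared receptor, whose kinases activate a complex of transcription factors, IRF9 among them, that switches on a large set of genes together. The products sense viral RNA, block steps of viral replication, tag proteins with the ubiquitin-like protein ISG15, or feed the signal back, and in blood most leukocytes can carry them, so their joint level is used as an interferon signature. In whole blood, fewer cells of a type and less RNA per cell cannot be told apart.

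Libraries held 14524659 to 41533599 counts. The mean level of rows named after small RNAs parted the dogs into 10 with high levels, 5 cases and 5 controls, and 21 with low levels, 8 cases and 13 controls. The methods name a batch of 10 earlier libraries, also of 5 cases and 5 controls. The labels do not say which dogs were in it, so this split is not known to be that batch. Markers of 8 blood cell types were detected, each with at least 7 of its 8 markers tested. Platelet markers leaned towards cases, with a median log2 fold change of 0.61. Of these, 6 of 7 were higher at an unadjusted edgeR P below 0.05, against 5.04% of all genes, and none passed the adjusted threshold. Erythroid markers also leaned towards cases, with a median of 0.64 and 0 of 8 at that P. Their score, the mean log2 level of the 8 centred over the dogs, had a mean of 0.42 in cases (SD 1.08) and -0.31 in controls (SD 1.15), and was highest in control_03 at 2.73 and case_01 at 2.55.

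The interferon stimulated genes varied together from dog to dog, and this shared variation ran through both groups. With each gene on the log2 scale of CPM, counts relative to the size of the library, and centred on its group mean, the median Pearson r over the 561 pairs of member rows was 0.64, against a median of -0.001 over all pairs of genes tested. An r above 0.5 was seen for 67.4% of the member pairs and for 4.48% of all pairs. The median r was 0.66 within the 13 cases and 0.65 within the 18 controls. It was 0.64 with each side of the small RNA split also centred, 0.56 without the pair of dogs with the highest mean over the members, and 0.71 after the slope of each gene on the erythroid markers was removed. These correlations are descriptions over 31 dogs, and all values of a dog come from 1 library.

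**Figure D1:**
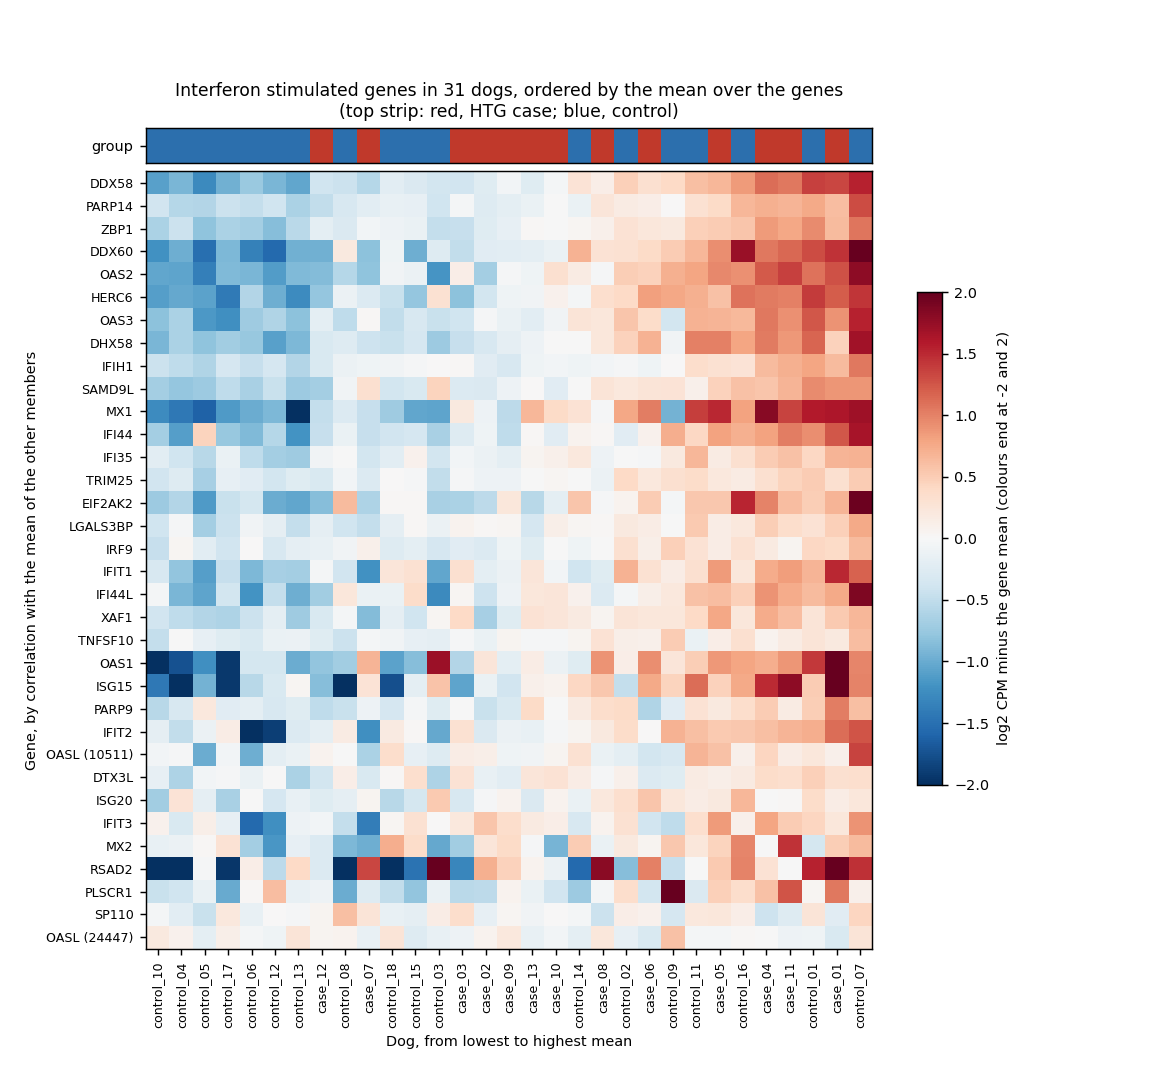
Each cell of the plot is the log2 CPM of 1 gene (vertical axis, from the highest to the lowest correlation with the mean of the other members) in 1 dog (horizontal axis, from the lowest to the highest mean over the 34 rows), minus the mean of the gene; the strip on top marks HTG cases in red and controls in blue. Most genes change from blue to red along the same order of dogs, and cases and controls are mixed in the upper part of that order. RSAD2, PLSCR1, SP110 and the OASL row ENSCAFG00000024447 at the bottom follow that order least.

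All 5 sensors of viral nucleic acid followed the common pattern, with r of 0.93 to 0.98 with the mean of the other members. DDX58, which encodes RIG-I and recognises viral RNA in the cytoplasm, ranged from 14.5 to 54.7 CPM in cases with a median of 21.1, and from 8.95 to 62.7 in controls with a median of 17.3. Its r with the mean of the other 33 rows was 0.98, the highest of all members. ZBP1, a sensor of Z-form nucleic acid, was at 61.1, 84.9 and 151 CPM (lowest, median and highest) in cases and at 46.3, 72.7 and 176 CPM in controls. The highest r of any pair, 0.97, was that of DDX58 with ZBP1. DDX60, a helicase that assists RIG-I, spanned 13.2-fold from its lowest to its highest dog, with an SD of 1.00 log2 CPM between dogs. DHX58 (LGP2) and IFIH1 (MDA5), relatives of RIG-I, followed with r of 0.93 each. The cases and controls overlapped widely for all 5 sensors, and the highest dog was control_07 in each.

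Members of other roles were as close to the common pattern, among them PARP14, an ADP-ribosyltransferase, with r of 0.96, OAS2 with 0.95, HERC6, a ubiquitin ligase that attaches ISG15 in mice, with 0.94, and OAS3 with 0.93. The OAS proteins are enzymes that respond to double-stranded RNA. SAMD9L, an antiviral restriction factor, reached 0.90, MX1, a dynamin-like GTPase that traps viral nucleocapsids, 0.89, and TRIM25, a ubiquitin ligase that acts on RIG-I, 0.87. IRF9, the DNA-binding part of the interferon-activated complex, had an r of 0.82 although it varied little, from 69.6 to 110 CPM in cases and from 60.9 to 131 CPM in controls. In all, 20 of the 34 rows had an r above 0.8 with the mean of the others and 29 had an r above 0.5.

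The 5 rows at or under 0.5 were MX2 (0.495), RSAD2 (0.44), PLSCR1 (0.41), SP110 (0.11) and the OASL row ENSCAFG00000024447 (-0.05). PLSCR1, a phospholipid scramblase that restricts viruses, rested partly on 1 dog. Its level in control_09 was 97 CPM, while the other 30 dogs lay at or below 29.1 CPM, and without that dog its r was 0.51. Within cases the r of PLSCR1 was 0.85, and within controls, which include control_09, it was 0.26. SP110, a nuclear body protein, had an r of -0.54 within cases and 0.45 within controls, and no test of that difference was made. It was also among the members with the steadiest levels, at 127 to 217 CPM in cases and 125 to 259 in controls.

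The OASL rows behaved differently from each other. OASL encodes a relative of the OAS enzymes that binds RIG-I. The row ENSCAFG00000010511 had an r of 0.61 with the other members, and the row ENSCAFG00000024447, with an SD of 0.20 log2 CPM the least variable of all members, had an r of 0.22 with its namesake. Reads that could not be assigned to 1 gene were left out of the counts by the authors, so rows of near-identical genes may be counted too low, and both rows are uncertain.

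The order of dogs along the common pattern was described by a score, the mean over the 34 rows of log2 CPM minus the mean of the gene. The score had an SD of 0.49 over all dogs, 0.41 in cases and 0.53 in controls. It ran from -0.36 to 0.92 in cases with a median of -0.02, and from -0.63 to 1.06 in controls with a median of -0.25. The 7 dogs with the lowest scores were all controls, and above them the groups were mixed, with control_07 highest, case_01 next and control_01 after them. The groups overlapped over the whole range of the cases. Control_07 had the highest CPM of all dogs for 20 of the 34 rows and stood above the median of all dogs in all 34. Case_01 was highest for 5 rows, namely ISG15, RSAD2, OAS1, IFIT1 and PARP9. The highest value of a member lay in a control for 26 rows and in a case for 8, and the lowest lay in a control for 30 and in a case for 4.

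The score did not follow any of the 8 cell marker scores closely. Over the 31 dogs, centred on the group means, Pearson's r with it was 0.23 for neutrophil markers (Spearman's rho 0.25), -0.17 for monocyte (rho -0.15), -0.16 for T cell (rho -0.26) and -0.09 for B cell markers (rho -0.13). It was 0.12 for platelet (rho 0.22), 0.07 for erythroid (rho 0.13), -0.05 for plasmacytoid dendritic cell (rho -0.11) and 0.00 for cytotoxic lymphocyte markers (rho -0.09). Plasmacytoid dendritic cells are the strongest producers of type I interferon in blood. The dogs with high small RNA levels had scores from -0.55 to 0.52 and the other dogs from -0.63 to 1.06.

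The spread between dogs was wide for these genes. The median SD of log2 CPM was 0.60 over the 34 rows and 0.37 over all genes tested, and 26 of the 34 rows lay above the latter. The median biological coefficient of variation, the spread between dogs that edgeR estimates beyond counting error, was 0.39 for members and 0.25 for all genes. RSAD2 had the largest SD, 1.50, followed by ISG15 with 1.22, MX1 with 1.12, OAS1 with 1.05, DDX60 with 1.00, OAS2 with 0.90, HERC6 with 0.85 and DDX58 with 0.79. SAMD9L took the most reads of the members in the median dog, 15.9% of their summed CPM, and SP110 took 8.69% and ISG20, an exonuclease that degrades viral RNA, 5.43%. RSAD2 took 4.48% in the median dog and 27.1% in its highest dog. The 3 tested rows with the lowest median CPM were IFIT1, ISG15 and XAF1, each still with 12 or more counts in its lowest dog.

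**Figure D2:**
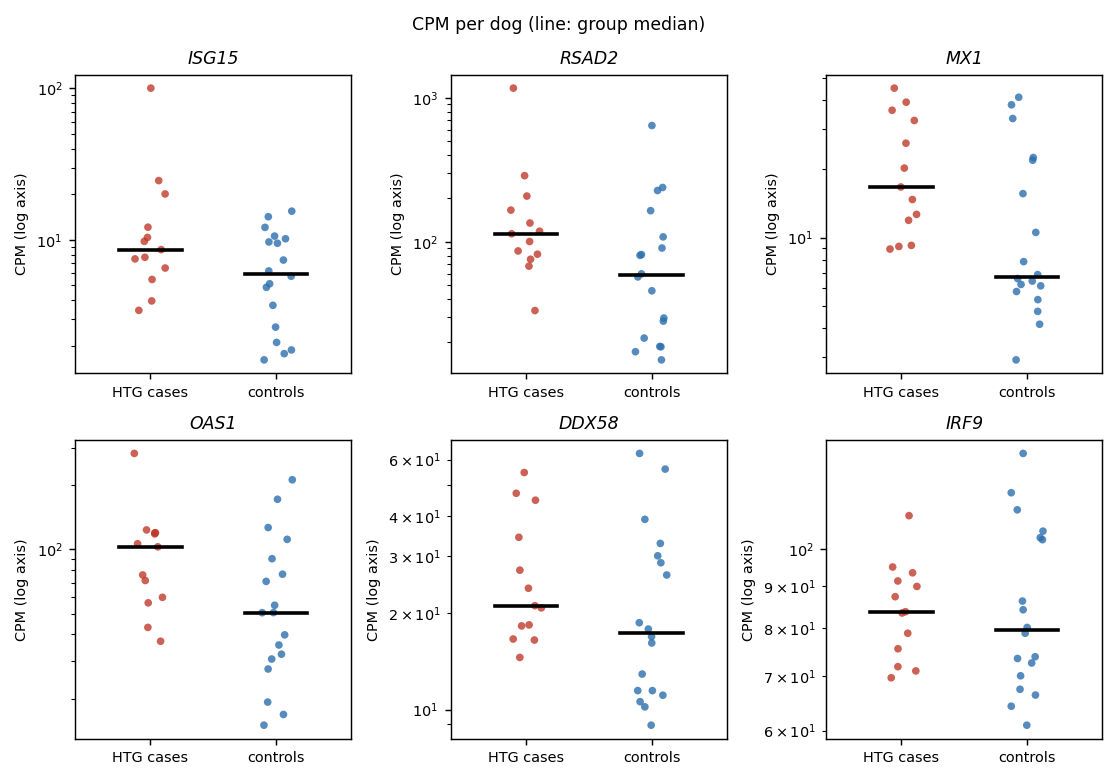
The panels show CPM on a log axis for 6 members, 1 point per dog, with HTG cases in red, controls in blue and a line at the group median. The groups overlap for every gene, a single case stands far above the others for ISG15 and RSAD2, and the controls of IRF9 extend beyond its cases at both ends.

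No member differed between HTG cases and controls at the adjusted threshold. With edgeR's quasi-likelihood test, 0 of the 34 rows had an adjusted P of at most 0.05, where 5 of the 13918 genes tested, 0.0359%, did. DESeq2 also called 0 members, where 84 of the 13918 genes were called. Limma-voom called 0 genes of all those tested, so it could call no member. At an unadjusted P below 0.05, 1 member stood higher in cases and 0 stood lower, against 5.04% and 4.76% of all genes; DESeq2 gave 2 members higher and 0 lower, against 5.42% and 5.11% of all genes, and limma-voom gave 4 and 0, against 6.75% and 4.43%. The member fold changes leaned towards cases: 28 of 34 were above 0 on the log2 scale, against 45.5% of all genes, and their median was 0.12, against -0.02 over all genes. Since the members moved together from dog to dog, these 28 do not count as separate observations. The median was 0.16 among the dogs with low small RNA levels and 0.17 among those with high levels. Without case_01 it was 0.06, with 25 of 34 above 0, and with age in the model it was 0.07.

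ISG15, the ubiquitin-like protein that is both attached to other proteins and released as a cytokine, had the smallest P. Its level was 3.43 CPM in the lowest case, 8.63 in the median and 100.4 in the highest, and 1.61, 6.00 and 15.5 CPM in the same order in controls. One case, case_01, lay at 13.4 times the median of all dogs, the next dog, case_11, had 24.6 CPM, and the lower end of the cases lay within the range of the controls. The fitted log2 fold change was 1.29 ± 0.42 (SE, n = 13 and 18, edgeR P = 0.0046, adjusted P = 0.278), and 10 of 13 cases lay above the control median. Without case_01 it was 0.54 ± 0.33 (edgeR P = 0.120). It was 1.73 among the dogs with low small RNA levels, which include case_01, and 0.17 among those with high levels. With the erythroid marker score in the model it was 0.74 ± 0.40 (edgeR P = 0.073), and with age in the model 0.94 ± 0.48 (edgeR P = 0.060).

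RSAD2, also called viperin, makes a nucleotide that ends viral RNA chains. It ranged from 33.3 to 1169 CPM in cases, with a median of 114, and from 15.1 to 642 CPM in controls, with a median of 58.5. A single dog of each group was far above the rest of its group, case_01 at 14.2 times and control_03 at 7.83 times the median of all dogs. The log2 fold change was 0.92 ± 0.53 (edgeR adjusted P = 0.601). It was 0.68 ± 0.40 without case_01 and control_03, 0.20 ± 0.47 without case_01 alone, 1.16 ± 0.48 with limma-voom, 0.16 ± 0.46 with DESeq2, 0.22 ± 0.30 with the erythroid score in the model, 1.53 among the dogs with low small RNA levels and -0.29 among those with high levels.

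MX1 gave a different distribution, with no dog standing apart from its group. Its levels were 8.91, 16.7 and 45.2 CPM (lowest, median and highest) in cases and 2.91, 6.75 and 41.3 CPM in controls. All 13 cases lay above the control median, as they also did for OAS3, at 72.3, 97.0 and 198 CPM in cases and 40.9, 68.9 and 278 CPM in controls. This was so for 2 of the 34 members and for 0.704% of all genes, and the pair was picked out after the values were seen. The highest control lay just below the highest case for MX1 and above it for OAS3. The log2 fold change of MX1 was 0.67 ± 0.37 (edgeR adjusted P = 0.576) and that of OAS3 was 0.26 ± 0.25 (edgeR adjusted P = 0.783). The MX1 value was 0.95 ± 0.35 with limma-voom, 0.66 ± 0.38 with DESeq2, 0.57 ± 0.38 without case_01 and 0.52 ± 0.38 without case_01 and control_03. For no member and for 0% of all genes did the ranges of the groups stay apart.

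OAS1 was at 37.2, 103 and 282 CPM in cases and at 15.1, 50.6 and 212 CPM in controls, with case_01 and control_03 highest again, and its log2 fold change was 0.57 ± 0.34 (edgeR adjusted P = 0.618). It was 0.34 ± 0.33 without case_01, 0.52 ± 0.31 without case_01 and control_03, and 0.28 ± 0.28 with the erythroid score in the model. IFIT1, which binds viral RNA lacking a host cap, was at 1.39, 3.81 and 9.14 CPM in cases and at 1.51, 2.54 and 7.29 CPM in controls, a log2 fold change of 0.38 ± 0.23, or 0.23 ± 0.22 without case_01. XAF1, a promoter of cell death, was at 5.01, 10.8 and 15.7 CPM in cases and at 5.56, 8.50 and 14.4 CPM in controls, a log2 fold change of 0.27 ± 0.16. The groups overlapped widely for all 3 genes. IFIT3, a partner of IFIT1, and SAMD9L and ZBP1 had log2 fold changes of 0.26 ± 0.19, 0.20 ± 0.18 and 0.20 ± 0.19, and that of SAMD9L was 0.12 ± 0.18 without case_01. OASL ENSCAFG00000024447 was at -0.09 ± 0.07.

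By role, the fold changes of the 5 sensors were all above 0, from 0.03 for DDX60 to 0.23 for DDX58. Of the 15 rows of direct antiviral effectors 11 were above 0, and the 4 below were PLSCR1, EIF2AK2, the kinase PKR that halts translation, and both OASL rows. All 4 rows of the ISG15 system and ubiquitin ligases, both ADP-ribosylation genes, both cell death genes and the 4 other induced genes were above 0. Besides ISG15, the fold changes in these last groups ran from 0.05 for TNFSF10, the death ligand TRAIL, to 0.27 for XAF1. LGALS3BP, a secreted glycoprotein, lay at 0.10 ± 0.12. Both transcription factors tested, IRF9 at -0.02 ± 0.10 and SP110 at -0.08 ± 0.09, lay below 0. Among the dogs with high small RNA levels alone 11 of the 34 members had the other sign, and all 6 rows that lay below 0 over all dogs lay above 0 there. Without ISG15, the P values of the members ran from 0.078 to 0.923.

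**Figure D3:**
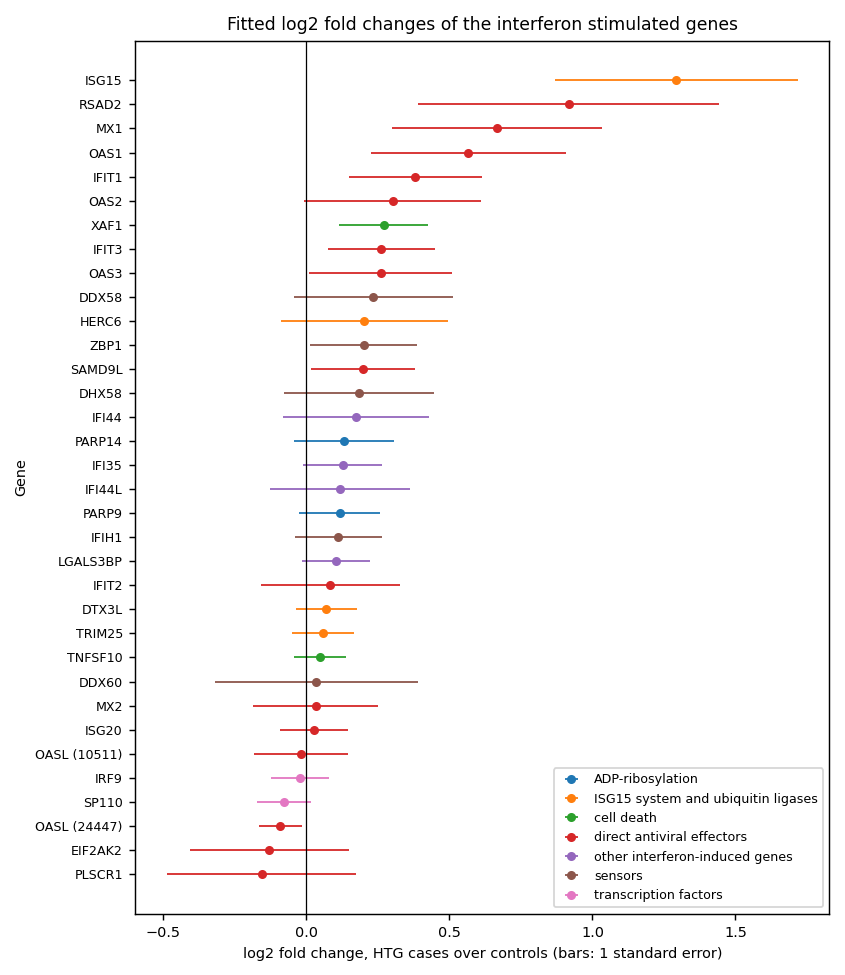
Points give the fitted log2 fold change of HTG cases over controls for the 34 rows on the vertical axis, coloured by role, with bars of 1 standard error. ISG15 lies highest at 1.29 and PLSCR1 lowest at -0.16, and 28 of the 34 points lie to the right of 0.

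Sex did not part the members. With edgeR, 0 of 34 rows passed the adjusted threshold for females against males, where 0.122% of all genes did, and 0 had an unadjusted P below 0.05 in either direction, against 1.6% higher and 3.29% lower among all genes. DESeq2 also gave 0 and limma-voom gave 1, IFIT3, lower in females at a log2 difference of -0.40 ± 0.19, where 2.95% of all genes were lower. The log2 differences of females over males ran from -0.36 for MX2, a relative of MX1 at the nuclear pore, to 0.60 for ISG15.

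Within the 13 cases, the slope of each gene on log10 triglycerides was fitted. None of the 34 members passed the adjusted threshold, nor did any of the 14771 genes tested (0%), while DESeq2 called 7 genes and 0 members. At an unadjusted P below 0.05 the members had 3 slopes above 0 and 0 below, against 4.06% and 1.71% of all genes, and the counts of members were the same with DESeq2 and limma-voom, where 4.11% and 3.15% of all genes had such slopes above 0. The slope was above 0 for 31 of 34 members, against 47.7% of all genes, and the median slope of the members was 0.50. Since the members moved together, these 31 do not count as separate observations. RSAD2 had a log2 slope of 3.08 ± 0.74 per 10-fold of triglycerides (edgeR adjusted P = 0.288), ISG15 of 2.92 ± 0.79 (edgeR adjusted P = 0.371) and OAS1 of 1.62 ± 0.53 (edgeR adjusted P = 0.541). Case_01, the dog with the highest level of all 3 genes, also had the highest triglycerides. Without it 0 members had an unadjusted P below 0.05, and the slopes were 0.30 ± 1.14 for RSAD2, -0.10 ± 1.16 for ISG15 and 0.51 ± 0.80 for OAS1. In that fit 27 of the 34 member slopes were above 0, with a median of 0.22.

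The r of RSAD2 was 0.84 with erythroid markers and 0.44 with the mean of the other members. These markers are a set of genes of red cell precursors and reticulocytes such as ALAS2, AHSP and SLC4A1. The former is Pearson's r with the erythroid marker score over the 31 dogs (Spearman's rho 0.86). It was 0.74 without the pair of dogs farthest from the median score. The r of RSAD2 was 0.87 within cases and 0.84 within controls, and 0.79 and 0.97 among the dogs with low and high small RNA levels. DDX58 had an r of 0.02. The values for OAS1, ISG20 and ISG15 were 0.61, 0.52 and 0.47 (rho 0.56, 0.49 and 0.41), and 0.44, 0.45 and 0.29 without that pair of dogs. The most negative values were -0.39 for OASL ENSCAFG00000010511, -0.35 for IFIT2 and -0.33 for IFIT3, and IFI44L, DTX3L and MX2 also lay below -0.3. For 24 of the 34 rows the r was under 0.3 in size, and the median over the members was -0.05, against -0.07 over all genes.

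**Figure D4:**
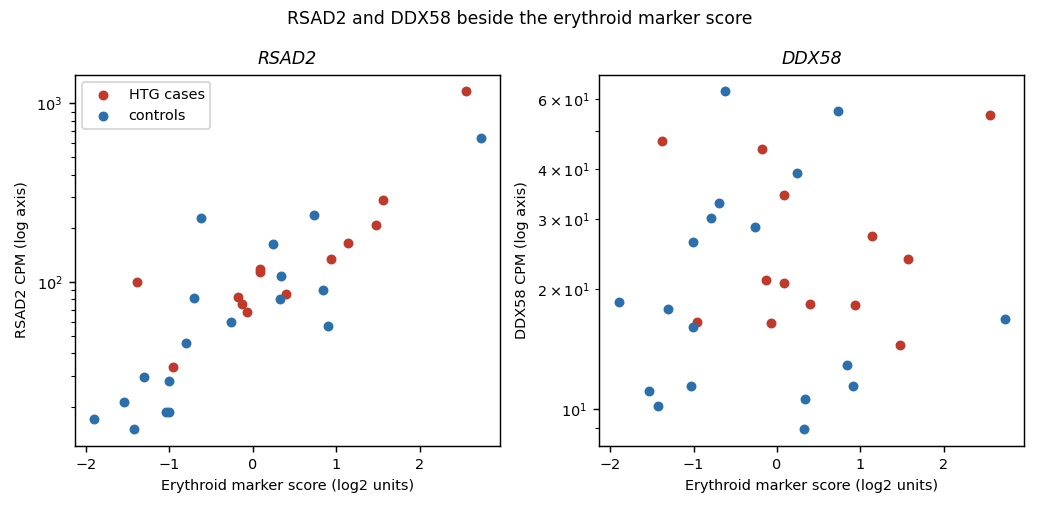
RSAD2 (left) and DDX58 (right) in CPM on a log axis are plotted against the erythroid marker score in log2 units, 1 point per dog, with HTG cases in red and controls in blue. RSAD2 climbs with the score in both groups (r 0.84), and DDX58 shows no such order (r 0.02).

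An edgeR fit of the slope on this score with the group in the model, chosen after the data were seen, called 4 members with positive slopes, where 15.8% of all genes were called with a positive slope, and 0 with negative slopes, where 14.9% were. The share of members called is thus no larger than that of genes at large, and the result concerns these 4 genes. Per log2 unit of the score, RSAD2 rose by 1.02 ± 0.12 (edgeR adjusted P = 1.4e-08), OAS1 by 0.51 ± 0.11 (edgeR adjusted P = 0.0009), ISG20 by 0.15 ± 0.05 (edgeR adjusted P = 0.014) and ISG15 by 0.49 ± 0.16 (edgeR adjusted P = 0.016). Without case_01 and control_03 only RSAD2 was called, at 0.87 ± 0.17, where 10.5% of all genes were called with a positive slope, and ISG15 lay at 0.11 ± 0.20. In the controls alone RSAD2, at 1.09 ± 0.17, and OAS1, at 0.59 ± 0.17, were called, where 9.43% of all genes were called with a positive slope.

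The members nearest to RSAD2 were OAS1 with an r of 0.83, ISG15 with 0.74 and ISG20 with 0.66. Of all genes tested, the one nearest to it was LGALS9, a galectin, with an r of 0.89, and the next with symbols were ARHGEF12, TUBA8, CMAS, BCL2L1, which protects maturing red cells from death, FOXO3 and RNF14, all with r of 0.85 or 0.86 and none of them a member. Among the dogs with low small RNA levels the r of RSAD2 with the other members was 0.65, and among those with high levels, which include control_03, it was -0.38. The summed CPM of the 8 erythroid markers ran from 942 to 17999.8 in cases and from 764 to 28786 in controls. The part of red cell RNA in the levels of these members was not tested.

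**Figure D5:**
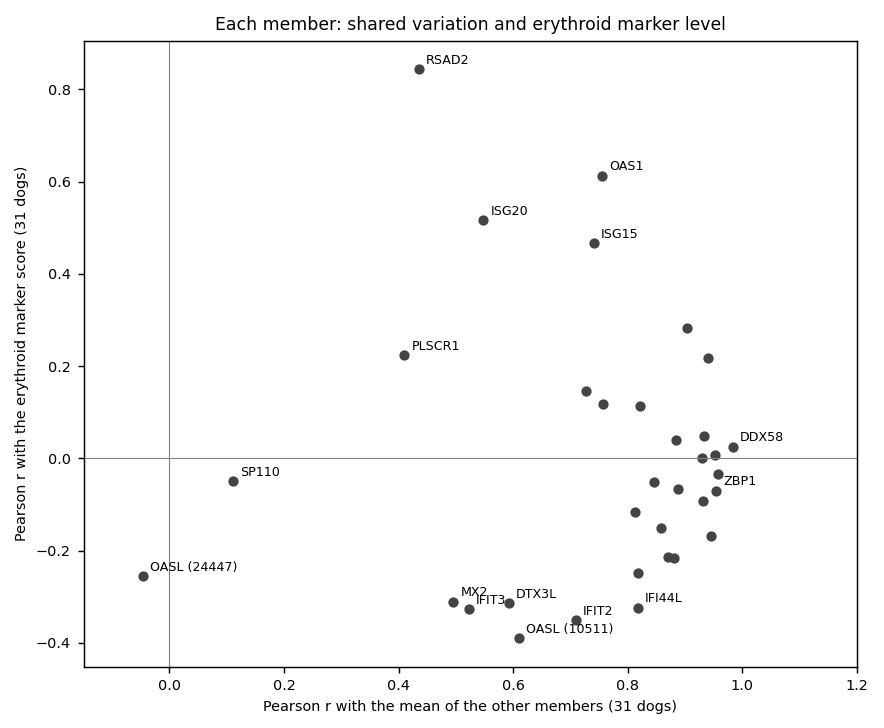
Each point is 1 of the 34 rows, placed by its Pearson r with the mean of the other members (horizontal axis) and with the erythroid marker score (vertical axis) over 31 dogs. RSAD2 stands alone at the top with 0.84, OAS1, ISG20 and ISG15 lie between 0.46 and 0.62, and DDX58 and ZBP1 lie at the right near 0.

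Of genes outside the list, those most like the member score were HSH2D, an adaptor of leukocyte signalling, with an r of 0.92, CMTR1, which methylates the messenger RNA cap, with 0.89, and TDRD7, which limits virus replication, with 0.89. Others were RTP4 with 0.86, TRIM14 with 0.85, ZC3HAV1, the zinc finger antiviral protein, with 0.84, the row ENSCAFG00000016252, which has no symbol, with 0.84, ADAR, an RNA-editing enzyme, with 0.84, and HELZ2 with 0.83. None of these genes had an unadjusted P below 0.05 between cases and controls, and the largest of their log2 fold changes was that of RTP4, 0.38 ± 0.22. They were picked for their likeness out of all genes tested over the same 31 dogs.

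Genes around the interferon response were counted from fixed lists. Of 8 interferon ligands, IFNG, IFNK and IFNE had a row, with medians of 0, 0 and 3 counts, and none was tested. Of 10 receptors and kinases 6 were tested and 0 had an unadjusted P below 0.05 (edgeR, 0 adjusted). Of all genes, 5.04% were higher and 4.76% lower at that P, so few would be due in lists this short. The kinases JAK1 and TYK2, which sit on the receptor, had r of -0.25 and 0.10 with the member score. Of 15 genes of nucleic acid sensing upstream of interferon 13 were tested, with 0 at that P. CGAS, the sensor of DNA in the cytoplasm, stood nearest to the members there with an r of 0.80 and a log2 fold change of 0.50 ± 0.26. The 8 negative regulators tested and the 14 genes that lean towards interferon gamma also had 0 each, with SOCS1 in both lists. Among the latter WARS reached an r of 0.61, CD274 0.52 and GBP1 0.11, and CXCL10, a chemokine, had a median of 5 counts and was not tested.

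Several members lie next to each other in the genome. In the RefSeq gene table of the UU_Cfam_GSD_1.0 assembly, which holds 39 of the 41 symbols and is not the assembly to which the reads were aligned, OAS1, OAS3 and OAS2 follow one another, and their neighbouring pairs had r of 0.75 and 0.88. IFI44 and IFI44L had an r of 0.79, IFIT2 and IFIT3 of 0.77, and PARP9 and DTX3L, which encode partner proteins and overlap in that table, of 0.66. MX2 and MX1, also neighbours, had an r of 0.37, with MX1 in the common pattern and MX2 in part outside it. Whether strand was used in counting is not given in the sources used here, so the counts of overlapping genes are uncertain.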

How the data were processed

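Whole-blood libraries of 31 dogs were made with a stranded total RNA kit. Per the labels and the methods, the authors trimmed reads with Trimmomatic, aligned them with HISAT2 to Dog10K_Boxer_Tasha, and deposited raw counts of read pairs per gene; the counting program and annotation are not given in the sources used here. Group and sex came from the labels, and age and triglycerides, used as covariates, from the study's list of dogs. In R 4.3.3, edgeR 4.0.16 applied TMM normalization, filterByExpr by group and the quasi-likelihood test with Benjamini-Hochberg adjustment over all genes tested (threshold 0.05). CPM used TMM library sizes, with a prior count of 2 for log2 values. Simulated counts were used to check the test. Alternatives included DESeq2 1.42.0 and limma-voom (limma 3.58.1). Correlations used Python 3.11.15 and numpy 2.4.6.

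The members and lists were chosen with earlier results of these data known. Members are described if among the 10 smallest P values, the 8 largest SDs, the 3 highest or lowest median CPMs, or the highest of a role; the other members, and LGALS9 with its followers, were named after their values were seen. The study included batch as a covariate, but the labels do not give it. CPM is not per length, so shares and ranks of CPM between genes describe reads taken, not expression levels. Of the genes outside the list that the naming rule gives, 2 are not reported here.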

Additional observations from a re-analysis of the deposited data

How the results depend on the processing

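The count of 0 members called between cases and controls was the same under each of 18 alternatives, and likewise under those tried for sex and triglycerides. In several of these fits 0 genes of any kind were called, so the member count could not differ there. Between cases and controls these were limma-voom, the replicate block, each side of the split alone, and the fit without the highest-scoring pair of dogs. For triglycerides they were all fits except DESeq2. The median member log2 fold change stayed above 0, from 0.05 without case_01 and control_03 to 0.24 with the replicate block. With the replicate block 0 members were called and ISG15 had a log2 fold change of 0.82; dog numbers do not pair the samples, since the deviations of same-numbered dogs had a median correlation of -0.01 over 13 pairs, with 3 above 0.1. Over all genes, 84 were called with DESeq2, 0 with limma-voom, 28 without case_01 and control_03, and 1 without case_01, against 5. RSAD2 turned to -0.29 and OASL ENSCAFG00000024447 to 0.0105 among the dogs with high small RNA levels alone, where 11 of the 34 members in all had the other sign, 5 of them now below 0 and 6 above. The SD of the member score was 0.41 in the cases alone, against 0.49. On the erythroid score, 1 member was called without case_01 and control_03 and 2 in the controls alone, against 4. Chosen after seeing the data were the fit on the erythroid score with its alternatives, the removal of its slope from the correlations, that score as a covariate, DESeq2 with the split, the fits without case_01 alone, and, between cases and controls, the fit without the highest-scoring pair of dogs. Each dog is 1 library, and the lowest count of a tested member in any dog was 12, for IFIT1.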
